A study of Mus musculus with 36 samples.

Results

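The genes described here are 9 members of the bone morphogenetic protein (BMP) pathway and its Id targets, picked by gene name from the count table of mouse embryonic stem cells (mESC): Id1, Id2, Id3, Id4, Bmp4, Bmp7, Bmpr1a, Smad6 and Smad7. They are 9 of the 55335 genes in that table, and all 9 passed the filter on low counts that left 17394 genes to test. The cells had received BPK25, a compound that the labels give by code only, or IAA (indole-3-acetic acid, the plant hormone auxin, used in cell biology to trigger the destruction of proteins carrying a degron tag), or DMSO, the solvent that served as control. Polyadenylated RNA was sequenced for each treatment at days labelled 0, 2, 4 and 6, with 3 libraries a group. This gave 12 groups and 36 libraries. The cells were in serum replacement medium with LIF, typically on gelatin with irradiated fibroblast feeders. The series concerns the NuRD chromatin-remodelling complex and CTCF sites. The labels give no doses, no age or passage of the cells, not the event from which days were counted, and not the protein that IAA was meant to remove, so no targeted gene could be checked. They also do not say whether the 3 libraries of a group came from separate cultures, so the p-values cover library-to-library spread, possibly only a technical one.

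BMPs are secreted dimers that bind pairs of type I and type II receptors at the cell surface. The activated type I receptor phosphorylates SMAD1, SMAD5 and SMAD9, which join SMAD4 and bind control regions of target genes, the Id genes among them. ID proteins lack a DNA-binding region and hold back basic helix-loop-helix (bHLH) transcription factors by pairing with their E protein partners. In mouse embryonic stem cells kept with LIF, BMP4 and the Id genes it induces are known to help hold back neural differentiation.

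Library totals ran from 6621288 to 16497799 counts, and levels are given as CPM (counts scaled to library size, here with TMM factors), as mean ± SD over 3 libraries unless single libraries are listed. A gene was called changed where edgeR's quasi-likelihood test gave a Benjamini-Hochberg adjusted p under 0.05 over all 17394 genes, and the ± of a log2 fold change approximates its standard error. The pluripotency markers of stem cells (10 genes, Pou5f1 and Nanog among them) were present in every group. Their summed level was 2951 to 3054 CPM in DMSO libraries at day 0, 2796 to 2836 at day 2, 1194 to 1295 at day 4 and 756 to 764 at day 6. Genes listed as feeder cell markers (15 genes, 14 of them tested) had summed reads in every group. Their mean sum ran from 171 CPM in IAA libraries at day 0 to 613 CPM in IAA libraries at day 6. In DMSO at day 0, Pdgfra alone had 127 CPM of a mean sum of 200 CPM. Col1a1 was at 4.36 CPM and Col3a1 at 1.80 CPM there. Whether feeder cells gave these reads was not tested. The BPK25 libraries of day 4 stood apart from those of the other BPK25 days. Over all genes they lay at a root mean square log2 distance of 0.608 from DMSO of the same day, against 0.262, 0.274 and 0.233 at days 0, 2 and 6. Their nearest group was IAA at day 2, at 0.506. Whether these libraries carry the right labels was not tested, and every value of BPK25 at day 4 given here goes by the label. Results at this day are therefore given apart, and the tests across days also without it. In bulk RNA, fewer cells of a type and less RNA per cell cannot be told apart.

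Promoter windows of Id1, Bmp7 and Smad7 are not reported here. For the other 6 of the 9 genes, windows of 300 bases, 250 before to 50 after the RefSeq start (GRCm38.p6), were examined. They were searched on both strands for GGCGCC, a palindrome to which SMAD proteins bind in BMP target genes, and for GTCTAGAC, the palindromic SMAD-binding element; the 2 do not overlap. Across 32851 promoter windows, GGCGCC was in 11.9% and GTCTAGAC in 0.213%. GGCGCC was found in the windows of Id2, Id4 and Bmpr1a, and GTCTAGAC in that of Smad6, where it lies across the start site; those of Id3 and Bmp4 held neither. A match is only a description of these letters. The 4 windows with a motif are printed up to the RefSeq start or the first base within the gene's GENCODE exons, whichever came first. These stretches hold the motifs, and that of Smad6 runs on to the end of its motif. Those of Id2 and Bmpr1a lie inside the gene's full GENCODE span, which starts upstream of the RefSeq start. Each runs 5′ to 3′ on the gene's strand with the motif in capitals: Id2 chr12:25096254-25096342 (minus), Id4 chr13:48260866-48261115 (plus), Bmpr1a chr14:34502688-34502796 (minus) and Smad6 chr9:64022056-64022309 (minus).
Id2: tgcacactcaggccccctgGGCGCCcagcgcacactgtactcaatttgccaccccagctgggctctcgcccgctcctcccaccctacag
Id4: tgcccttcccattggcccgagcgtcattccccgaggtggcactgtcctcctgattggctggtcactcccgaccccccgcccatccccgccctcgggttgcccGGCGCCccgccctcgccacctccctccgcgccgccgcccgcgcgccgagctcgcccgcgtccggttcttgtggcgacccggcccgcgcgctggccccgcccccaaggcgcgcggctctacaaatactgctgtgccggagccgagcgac
Bmpr1a: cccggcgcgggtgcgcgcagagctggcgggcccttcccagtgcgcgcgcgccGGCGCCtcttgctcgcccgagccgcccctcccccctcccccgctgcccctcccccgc
Smad6: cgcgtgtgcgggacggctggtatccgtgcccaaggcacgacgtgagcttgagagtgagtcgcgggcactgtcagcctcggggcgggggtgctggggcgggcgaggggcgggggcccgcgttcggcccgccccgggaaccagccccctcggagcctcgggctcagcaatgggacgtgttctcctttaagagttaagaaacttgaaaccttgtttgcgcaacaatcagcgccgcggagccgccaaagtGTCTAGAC

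The 4 Id genes encode inhibitors of bHLH transcription factors. In GENCODE M21 (GRCm38), Id1 lies at chr2:152736251-152737410, Id2 at chr12:25093799-25097140, Id3 at chr4:136143497-136145755 and Id4 at chr13:48261228-48266026. In DMSO cells Id1, Id2 and Id3 climbed steeply with time while Id4 stayed low. Id1 had 9.68, 11.9 and 11.2 CPM at day 0, 8.17, 6.83 and 10.2 at day 2, 25.3, 22.9 and 21.4 at day 4, and 49.3, 43.1 and 53.0 at day 6. Id2 had 4.36, 4.33 and 3.26 CPM at day 0, 3.87, 4.28 and 4.25 at day 2, 25.8, 23.2 and 25.6 at day 4, and 44.5, 43.2 and 45.3 at day 6. For both genes the libraries of days 4 and 6 lay above all libraries of days 0 and 2. Id3 had 0.409, 0.394 and 1.40 CPM at day 0, 0.573, 1.47 and 0.378 at day 2, 6.06, 5.34 and 4.85 at day 4, and 13.7, 16.8 and 17.7 at day 6. Its early values rest on few reads, 15 counts over the 3 libraries at day 0. Relative to day 0, the day 6 level was higher by a log2 fold change of 2.15 ± 0.11 for Id1 (adjusted p = 2.50e-22), 3.46 ± 0.11 for Id2 (adjusted p = 1.39e-30) and 4.47 ± 0.25 for Id3 (adjusted p = 4.44e-21). Id4 averaged 4.64 ± 0.516 CPM at day 6 and 3.16 ± 0.807 CPM at day 0, a log2 fold change of 0.57 ± 0.18 (adjusted p = 0.00755). That call was lost when replicate 2 or 3 of day 0 or replicate 1 of day 6 was left out, with a highest adjusted p of 0.0927.

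The ligands, the receptor and the inhibitory SMADs followed other courses in DMSO. Bmp4 (chr14:46383520-46390669), the ligand that embryonic stem cells are known to make and respond to, fell with time: 12.7, 13.8 and 15.2 CPM at day 0, 11.8, 10.04 and 10.9 at day 2, 5.39, 4.96 and 5.14 at day 4, and 3.65, 2.87 and 3.04 at day 6. Its log2 fold change at day 6 against day 0 was -2.08 ± 0.13 (adjusted p = 3.55e-19), with no overlap of the libraries. Bmpr1a (chr14:34410734-34503341), a type I BMP receptor, was at 160 ± 5.88 CPM at day 6 and 109 ± 3.83 CPM at day 0 (log2 fold change 0.56 ± 0.04, adjusted p = 1.14e-15). Bmp7 (chr2:172868012-172940321), a second ligand, averaged 11.5 CPM at day 0, 16.3 at day 2, 15.8 at day 4 and 15.3 at day 6. All 3 later days were called higher than day 0, with overlapping libraries at day 6, the day 2 call (log2 fold change 0.49 ± 0.13, adjusted p = 0.0207) being lost when replicate 2 or 3 of day 0 or replicate 2 of day 2 was left out. Smad7 (chr18:75367529-75395935), whose protein blocks activated type I receptors, fell to 11.4 ± 0.701 CPM at day 4, against 19.0 ± 0.363 CPM at day 0 (log2 fold change -0.73 ± 0.11, adjusted p = 5.68e-07), and stood at 14.2 ± 0.346 CPM at day 6. Smad6 (chr9:63953076-64022059), the inhibitory SMAD that acts mainly on BMP signals, was not called at any later day, with group means from 2.84 to 3.81 CPM. In all, 1 of the 9 genes was called higher and 0 lower at day 2, where 1.59% of all genes tested were called higher and 3.85% lower. At that day 2 members had an unadjusted p under 0.05 in the lower direction and DESeq2 called 0. At day 4, 5 were higher and 2 lower, against 26.0% and 24.4% of all genes. At day 6, 6 were higher and 2 lower, against 33.2% and 29.5%.

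**Figure D1:**
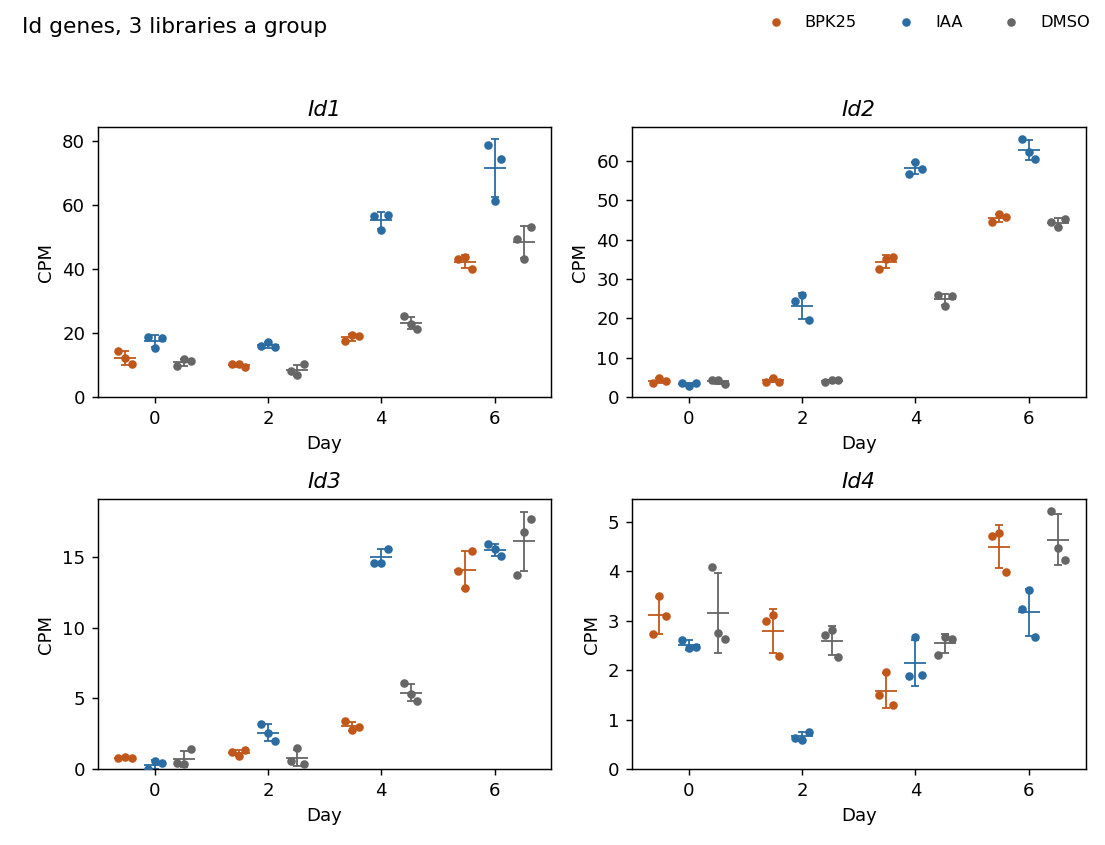
Level of the 4 Id genes in CPM (vertical axis, from 0) by day (horizontal axis) for BPK25, IAA and DMSO, one point a library with a bar for the mean and SD of 3 libraries. In IAA at day 2 Id2 stands at 19.5 to 25.9 CPM and Id4 at 0.592 to 0.760 CPM, outside the DMSO libraries of that day in opposite directions.

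With IAA, Id1, Id2 and Id3 exceeded their DMSO levels at days 2 and 4, and Id4 was lower at day 2. Id2 showed the widest gap at day 2, with 24.3, 25.9 and 19.5 CPM in IAA libraries, against 3.87, 4.28 and 4.25 CPM in DMSO libraries. The groups did not overlap, and the log2 fold change was 2.47 ± 0.12 (adjusted p = 6.44e-23). At day 4 Id2 had 56.7, 59.7 and 57.9 CPM in IAA libraries, against 25.8, 23.2 and 25.6 CPM in DMSO libraries (log2 fold change 1.23 ± 0.07, adjusted p = 1.11e-20). At day 6 it was still higher in IAA (0.50 ± 0.06, adjusted p = 8.49e-10). Side by side and not tested, Id2 averaged 23.2 ± 3.32 CPM in IAA at day 2 and 24.8 ± 1.45 CPM in DMSO at day 4. Id1 was higher in IAA at all 4 days. It had 18.7, 15.3 and 18.5 CPM in IAA libraries at day 0, against 9.68, 11.9 and 11.2 CPM in DMSO libraries, and 56.6, 52.2 and 56.9 CPM in IAA libraries at day 4, against 25.3, 22.9 and 21.4 CPM in DMSO libraries. The log2 fold changes of Id1 were 0.67 ± 0.14 at day 0 (adjusted p = 9.35e-05), 0.93 ± 0.14 at day 2 (adjusted p = 1.87e-07), 1.24 ± 0.09 at day 4 (adjusted p = 7.19e-17) and 0.56 ± 0.07 at day 6 (adjusted p = 6.97e-09). Id3 had 3.18, 2.57 and 1.99 CPM in IAA libraries at day 2, against 0.573, 1.47 and 0.378 CPM in DMSO libraries (log2 fold change 1.72 ± 0.36, adjusted p = 7.48e-05). At day 4 it had 14.6, 14.6 and 15.6 CPM in IAA libraries, against 6.06, 5.34 and 4.85 CPM in DMSO libraries (1.45 ± 0.15, adjusted p = 8.68e-12). At day 6 the 2 treatments shared one range for Id3, 15.1 to 15.9 CPM in IAA libraries and 13.7 to 17.7 CPM in DMSO libraries, and the gene was not called.

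Id4 differed in the other direction. It had 0.635, 0.592 and 0.760 CPM in IAA libraries at day 2, against 2.72, 2.81 and 2.27 CPM in DMSO libraries, which did not overlap. The log2 fold change was -1.92 ± 0.30 (adjusted p = 3.52e-07), from 19 counts over the 3 IAA libraries and 64 over the 3 DMSO libraries. Id4 was not called at days 0 and 4. At day 6 it was lower in IAA, at 3.17 ± 0.476 CPM, against 4.64 ± 0.516 CPM in DMSO (-0.57 ± 0.17, adjusted p = 0.00410), a call that was lost without DMSO day 6 replicate 1 (adjusted p = 0.0693). A330033J07Rik, which lies over Id4 on the other strand, had 39 counts over the 36 libraries, against 985 for Id4; the sources used here do not say whether counting used strand.

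Bmp4 and Bmpr1a also separated IAA from DMSO from day 2 on. Bmp4 had 3.18, 3.75 and 3.32 CPM in IAA libraries at day 2, against 11.8, 10.04 and 10.9 CPM in DMSO libraries (log2 fold change -1.66 ± 0.14, adjusted p = 2.22e-14). It was lower at day 4 as well (-0.89 ± 0.16, adjusted p = 1.09e-05). At day 6 the direction turned, with 4.75, 4.39 and 5.34 CPM in IAA libraries and 3.65, 2.87 and 3.04 CPM in DMSO libraries (0.56 ± 0.16, adjusted p = 0.00427). In IAA cells Bmp4 was thus at 15.7 CPM at day 0, 3.42 at day 2, 2.79 at day 4 and 4.83 at day 6. Bmpr1a had 225, 239 and 228 CPM in IAA libraries at day 2, against 107, 112 and 110 CPM in DMSO libraries, a log2 fold change of 1.07 ± 0.04 (adjusted p = 9.27e-27). The receptor stayed at that level in IAA cells, at 215 ± 1.66 CPM at day 4 and 219 ± 2.93 CPM at day 6, where DMSO cells had 144 ± 6.84 and 160 ± 5.88 CPM. Its log2 fold change was 0.58 ± 0.04 at day 4 (adjusted p = 4.53e-17) and 0.46 ± 0.04 at day 6 (adjusted p = 5.73e-14). Bmp7 was called at day 2 alone of the 4 days, at 11.6, 11.4 and 7.31 CPM in IAA libraries, against 15.8, 19.1 and 14.1 CPM in DMSO libraries (-0.69 ± 0.13, adjusted p = 1.13e-05).

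The 2 inhibitory SMADs differed from each other under IAA. Smad7 stood at 38.2, 34.8 and 41.0 CPM in IAA libraries at day 0, against 18.8, 19.4 and 18.8 CPM in DMSO libraries, a log2 fold change of 0.99 ± 0.09 (adjusted p = 1.66e-12). At day 2 it was lower in IAA, at 13.8 ± 0.817 CPM, against 18.6 ± 0.743 CPM in DMSO (-0.43 ± 0.11, adjusted p = 0.000604), and at days 4 and 6 it was not called. Smad6 ran in the opposite order. At day 0 it had 1.96, 1.78 and 2.62 CPM in IAA libraries, against 2.73, 4.20 and 4.50 CPM in DMSO libraries (-0.86 ± 0.28, adjusted p = 0.00923). This call was lost without DMSO day 0 replicate 3 (adjusted p = 0.0523). At day 6 it had 8.75, 6.07 and 8.74 CPM in IAA libraries, against 3.65, 2.48 and 4.33 CPM in DMSO libraries, which did not overlap (1.17 ± 0.18, adjusted p = 2.61e-07). At day 4 the libraries overlapped, with 3.38, 5.09 and 4.90 CPM in IAA and 2.12, 3.91 and 2.50 CPM in DMSO. The day 4 difference (0.63 ± 0.22, adjusted p = 0.0135) was lost when IAA replicate 2 or 3 or DMSO replicate 1 was left out (highest adjusted p 0.148), and was 0.98 when DMSO replicate 2 was left out.

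At day 0 of IAA, 2 of the 9 genes were called higher and 1 lower, where 21.3% and 23.2% of all genes were. At day 2, 4 were higher and 4 lower, against 27.5% and 27.9% of all genes. At day 4, 5 were higher and 1 lower, against 25.9% in each direction, and at day 6 again 5 higher and 1 lower, against 30.6% and 30.0%. The median log2 fold change of the 9 genes was 0.58 at day 4 and 0.46 at day 6, where that of all genes was -0.00 and 0.00. Marker sums differed in the same libraries. The 10 pluripotency markers summed to 4241 to 4282 CPM in IAA and 2951 to 3054 CPM in DMSO at day 0. The order was the opposite at day 2, at 1530 to 1554 CPM in IAA and 2796 to 2836 CPM in DMSO. It stayed so at day 4 (843 to 847 CPM in IAA, 1194 to 1295 CPM in DMSO) and at day 6 (682 to 708 CPM in IAA, 756 to 764 CPM in DMSO). Single markers did not all follow the sum. At day 6 Tdgf1 (45.7 CPM in IAA, 9.76 CPM in DMSO), Klf4 (75.6 and 66.7 CPM) and Pou5f1 (220 and 208 CPM) were higher in IAA. The rest of the list was lower in IAA at that day. Tdgf1 was higher in IAA at day 4 too (17.7 and 6.64 CPM). The mesoderm markers summed to 64.9 to 67.6 CPM in IAA and 20.8 to 23.9 CPM in DMSO at day 2. Most of that gap was Meox1 (23.4 CPM in IAA, 0.720 CPM in DMSO), Kdr (15.5 and 2.85 CPM) and Eomes (25.0 and 15.0 CPM). The scarce T (0.364 and 1.10 CPM), Hand1 (0.801 and 1.38 CPM) and Mixl1 were lower in IAA. The 8 endoderm markers summed to 316 to 327 CPM in IAA and 511 to 519 CPM in DMSO at day 0. Their sums were 583 to 605 and 433 to 443 CPM at day 2, and 880 to 891 and 532 to 548 CPM at day 4. At day 6 they were 720 to 741 CPM in IAA and 795 to 806 CPM in DMSO. Dab2 made most of the gap at day 2 (434 CPM in IAA, 296 CPM in DMSO) and day 4 (654 and 346 CPM). Gata4 (15.4 and 32.2 CPM at day 2) and Sox17 (18.3 and 25.9 CPM) were lower in IAA at both days, Gata4 by little at day 4. Sox7 was lower at day 4. At day 6 Afp (17.9 and 2.48 CPM) and Ttr (34.2 and 4.45 CPM) were higher in IAA, against the sum. The 7 neural markers summed to 119 to 127 CPM in IAA and 95.5 to 99.1 CPM in DMSO at day 2. Nes (35.7 CPM in IAA, 16.8 CPM in DMSO) was higher in IAA, while Tubb3 (9.47 and 19.0 CPM) was lower. The summed level of the 15 feeder markers was 263 to 282 CPM in IAA and 185 to 192 CPM in DMSO at day 2, and 389 to 402 CPM in IAA and 264 to 283 CPM in DMSO at day 4. At day 6 it was 609 to 619 CPM in IAA and 404 to 411 CPM in DMSO. At day 0 it was 163 to 177 CPM in IAA and 197 to 202 CPM in DMSO. Single feeder markers went in both directions at day 2. The list's most abundant genes, Pdgfra (162 CPM in IAA, 111 CPM in DMSO) and Fbn1 (54.2 and 24.6 CPM), were higher in IAA. Col1a2 (14.7 and 2.70 CPM), Mmp2, Postn and Twist2 were higher there too. Fbln2 (2.06 CPM in IAA, 8.27 CPM in DMSO), Loxl1 (6.12 and 11.2 CPM) and Col3a1 (0.650 and 1.81 CPM) were lower in IAA. So were Col1a1 (3.15 and 4.26 CPM), Prrx1 (0.244 and 1.27 CPM) and, by little, Pdgfrb and Thy1. Lum and Dcn were at 0 in all 3 IAA libraries of that day and close to it in DMSO, at 0.377 and 0.326 CPM. The part of these cell types in the members' levels was not tested. The share of counts from mitochondrial genes was 1.72% in IAA and 1.22% in DMSO at day 2, and 2.49% and 1.40% at day 4; its part was not tested.

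**Figure D2:**
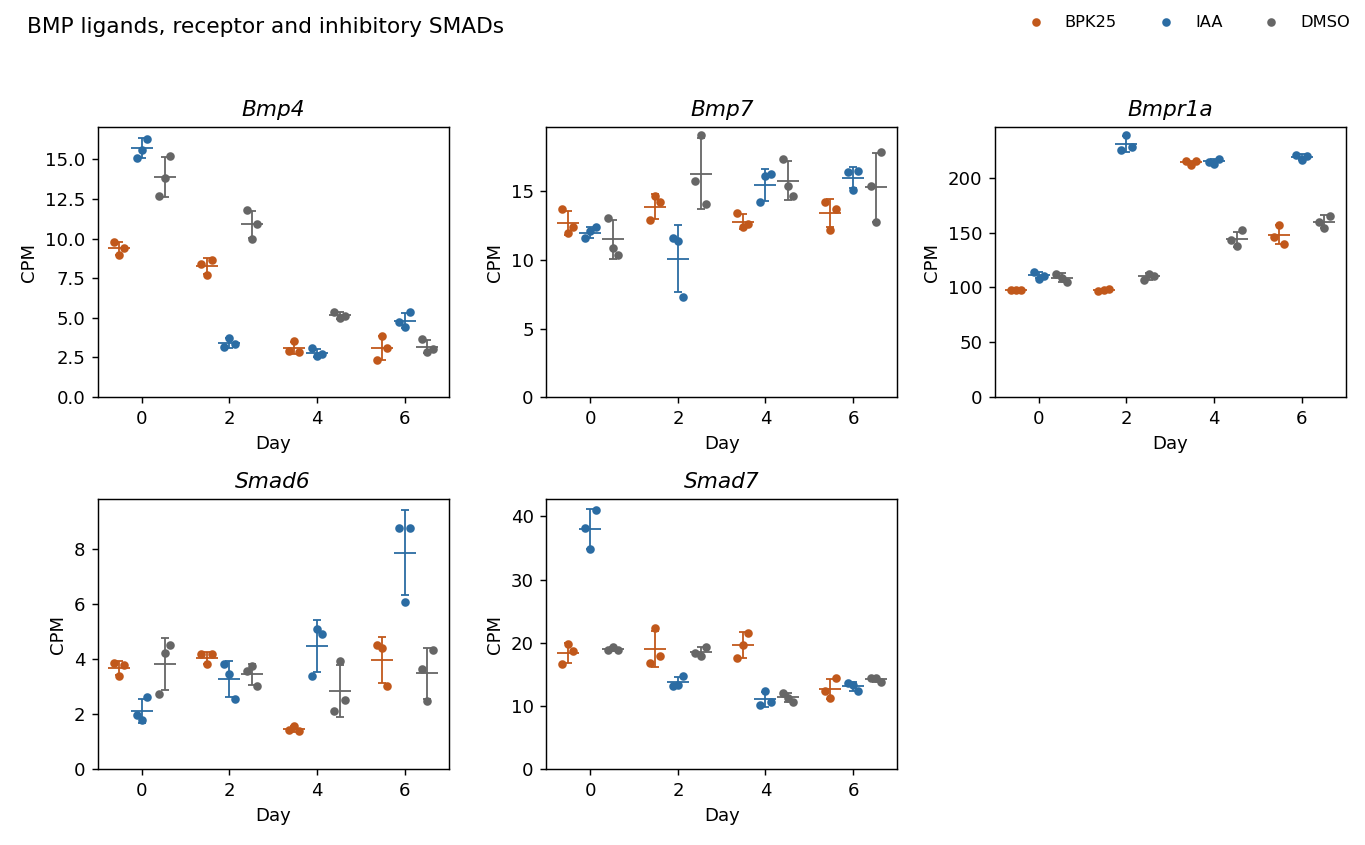
Level of Bmp4, Bmp7, Bmpr1a, Smad6 and Smad7 in CPM (vertical axes, from 0) by day (horizontal axis) for BPK25, IAA and DMSO, one point a library with a bar for the mean and SD of 3 libraries. Bmpr1a reaches 212 to 215 CPM in BPK25 at day 4 and 225 to 239 CPM in IAA at day 2, above the DMSO libraries, and Smad7 stands at 34.8 to 41.0 CPM in IAA at day 0.

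With BPK25 few of the 9 genes were called at days 0, 2 and 6. At day 0, 0 were called higher and 2 lower, where 3.32% and 4.58% of all genes were, and at day 2 again 0 higher and 2 lower, against 6.40% and 7.12%. The same 2 genes, Bmp4 and Bmpr1a, were lower at both days. Bmp4 had 9.80, 8.94 and 9.41 CPM in BPK25 libraries at day 0, against 12.7, 13.8 and 15.2 CPM in DMSO libraries (log2 fold change -0.56 ± 0.11, adjusted p = 0.000727). At day 2 it had 8.37, 7.68 and 8.66 CPM in BPK25 libraries, against 11.8, 10.04 and 10.9 CPM in DMSO libraries (-0.40 ± 0.11, adjusted p = 0.0129). This call was lost when BPK25 replicate 2 or DMSO replicate 1 or 3 was left out and with no filter on low counts (adjusted p = 0.0631). Bmpr1a differed little in size, at 97.5 to 98.1 CPM in BPK25 libraries and 105 to 112 CPM in DMSO libraries at day 0 (-0.15 ± 0.05, adjusted p = 0.0330). At day 2 it was at 96.6 to 98.4 CPM in BPK25 libraries and 107 to 112 CPM in DMSO libraries (-0.17 ± 0.05, adjusted p = 0.00684). The day 0 call of Bmpr1a was lost in 5 of the 6 fits that left out 1 library (any BPK25 library, or DMSO replicate 1 or 2), and both calls were lost with no filter on low counts. In the upward direction at these days, 0 members had an unadjusted p under 0.05 and DESeq2 called 0. At day 6, 0 of the 9 were called higher and 0 lower, against 4.01% and 3.08% of all genes, with 2 genes (Id1 and Bmpr1a) lower at an unadjusted p under 0.05 and 0 called by DESeq2. Id2 at that day was at 44.5, 46.4 and 45.6 CPM in BPK25 libraries and at 44.5, 43.2 and 45.3 CPM in DMSO libraries.

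At day 4, whose BPK25 libraries stood apart over all genes, every one of the 9 was called: 3 higher and 6 lower, against 26.2% and 26.8% of all genes. Bmpr1a, Id2 and Smad7 were the 3 higher ones. Bmpr1a had 215, 212 and 215 CPM in BPK25 libraries, against 143, 138 and 152 CPM in DMSO libraries (log2 fold change 0.57 ± 0.04, adjusted p = 8.18e-17). Smad7 had 17.6, 19.7 and 21.6 CPM in BPK25 libraries, against 12.1, 11.3 and 10.7 CPM in DMSO libraries (0.77 ± 0.11, adjusted p = 3.26e-08). Id2 had 32.5, 35.0 and 35.6 CPM in BPK25 libraries, against 25.8, 23.2 and 25.6 CPM in DMSO libraries (0.47 ± 0.08, adjusted p = 8.20e-07). None of these groups overlapped. The other 3 Id genes were lower than in DMSO of that day. Id3 had 3.40, 2.76 and 2.96 CPM in BPK25 libraries, against 6.06, 5.34 and 4.85 CPM in DMSO libraries (-0.83 ± 0.21, adjusted p = 0.000775). Id1 was at 17.4, 19.5 and 19.1 CPM in BPK25 libraries and at 25.3, 22.9 and 21.4 CPM in DMSO libraries (-0.33 ± 0.11, adjusted p = 0.00791). Id4 was at 1.49, 1.97 and 1.29 CPM in BPK25 libraries and at 2.31, 2.67 and 2.64 CPM in DMSO libraries (-0.71 ± 0.24, adjusted p = 0.0175). The call of Id1 was lost when replicate 1 of BPK25 or of DMSO was left out (highest adjusted p 0.0625), and that of Id4 when BPK25 replicate 1 or 3 or DMSO replicate 2 was (highest adjusted p 0.0914).

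Both ligands and Smad6 were also lower in BPK25 than in DMSO at day 4. Bmp4 had 2.90, 3.55 and 2.87 CPM in BPK25 libraries, against 5.39, 4.96 and 5.14 CPM in DMSO libraries (log2 fold change -0.75 ± 0.16, adjusted p = 0.000225). Smad6 had 1.41, 1.58 and 1.39 CPM in BPK25 libraries, against 2.12, 3.91 and 2.50 CPM in DMSO libraries (-0.99 ± 0.29, adjusted p = 0.00322). One DMSO library carried much of the Smad6 difference, which was -0.65 without DMSO day 4 replicate 2 (adjusted p = 0.104). Bmp7 averaged 12.8 ± 0.561 CPM in BPK25 and 15.8 ± 1.41 CPM in DMSO (-0.31 ± 0.12, adjusted p = 0.0246), a call that was lost when BPK25 replicate 2 or 3 or DMSO replicate 1 was left out. The summed feeder markers were 206 to 213 CPM in these BPK25 libraries and 264 to 283 CPM in DMSO. Nearly all of that gap was Pdgfra, at 96.3 CPM in BPK25 and 159 CPM in DMSO, while Mmp2 was at 26.5 CPM in BPK25 and 17.4 CPM in DMSO. Lum and Dcn were at 0 in all 3 BPK25 libraries and at 0.0959 and 0.642 CPM in DMSO. The pluripotency markers summed to 1061 to 1084 CPM in BPK25 and 1194 to 1295 CPM in DMSO. Against that sum, Pou5f1 (376 CPM in BPK25, 360 CPM in DMSO), Esrrb (52.0 and 40.5 CPM), Tdgf1 and Utf1 were higher in BPK25. The endoderm markers summed to 422 to 438 CPM in BPK25 and 532 to 548 CPM in DMSO. Dab2 (282 and 346 CPM), Gata4, Gata6, Sox17 and Sox7 were lower in BPK25. Afp (24.7 and 0.901 CPM), Ttr (13.3 and 1.67 CPM) and Foxa2 (17.4 and 15.6 CPM) were higher there. Mitochondrial genes took 1.96% of counts in BPK25 and 1.40% in DMSO. Their part in these differences was not tested. Set beside IAA at day 2, the nearest group over all genes, BPK25 at day 4 had similar means of Bmpr1a (214 and 231 CPM), Bmp4 (3.11 and 3.42 CPM), Id1 (18.7 and 16.3 CPM) and Id3 (3.04 and 2.58 CPM). Of these, the libraries of Bmpr1a (212 to 215 CPM in BPK25, 225 to 239 CPM in IAA) and Id1 did not overlap. Other members stood further apart, Id2 at 34.4 CPM in BPK25 and 23.2 CPM in IAA and Smad7 at 19.6 and 13.8 CPM. Id4 was at 1.59 and 0.662 CPM, Smad6 at 1.46 and 3.28 CPM, and Bmp7 at 12.8 and 10.1 CPM. These 2 groups were not tested against each other.

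**Figure D3:**
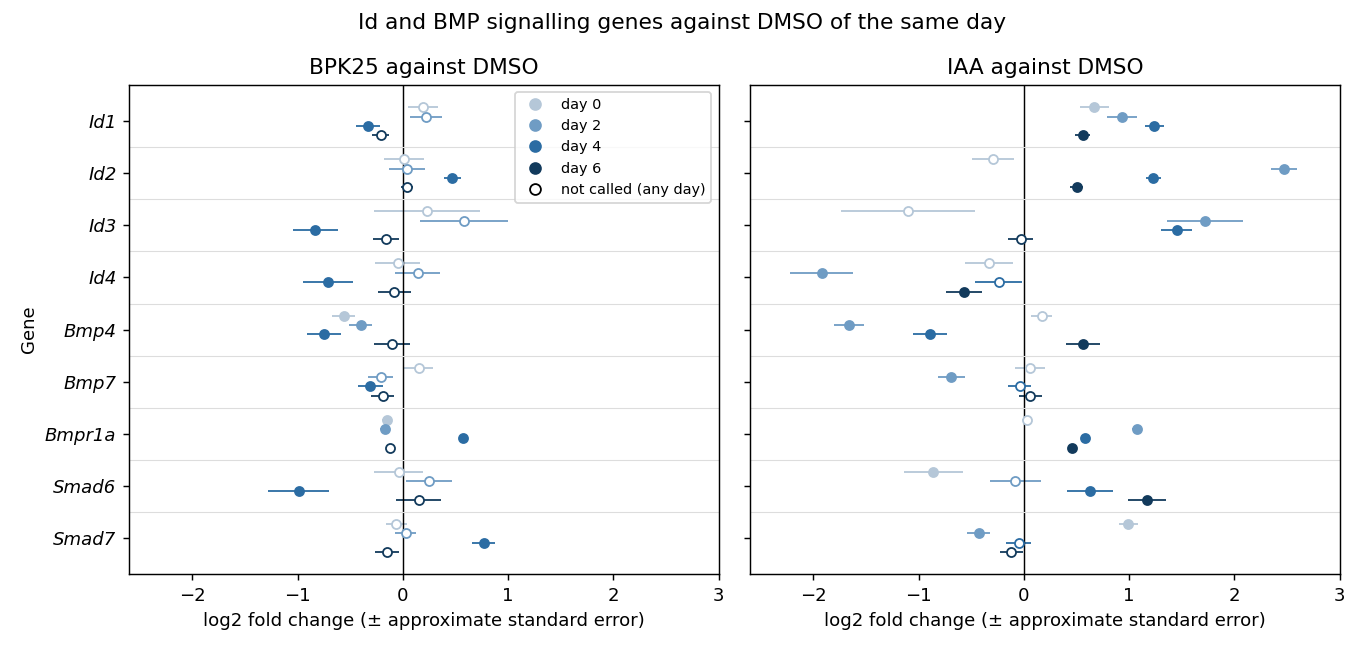
Log2 fold change of the 9 genes (rows) against DMSO of the same day, with horizontal bars for the approximate standard error, for BPK25 (left) and IAA (right); shades mark days 0 to 6 and open points genes not called. In BPK25 all 9 genes are called at day 4 and, at the other days, only Bmp4 (-0.56 at day 0, -0.40 at day 2) and Bmpr1a (-0.15 and -0.17). In IAA the widest values are those of day 2, Id2 at 2.47 and Id4 at -1.92.

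BPK25 and IAA were also set against each other at each day, without the DMSO means that both comparisons above share. The fit was the same one, which includes the DMSO libraries. At day 0, 1 of the 9 genes was higher in BPK25 and 4 were lower, against 24.8% and 23.1% of all genes. At day 2, 4 were higher and 4 lower, against 29.2% and 28.4%, and the 4 lower ones were Id1, Id2, Id3 and Bmpr1a. Id2 was at 3.93, 4.90 and 3.96 CPM in BPK25 libraries and at 24.3, 25.9 and 19.5 CPM in IAA libraries of day 2 (log2 fold change -2.43 ± 0.11, adjusted p = 3.96e-24). At day 4, 1 was higher and 5 lower, against 27.2% and 27.1%. The largest gap of that day was that of Id3, at 3.04 ± 0.325 CPM in BPK25 and 15.0 ± 0.584 CPM in IAA (-2.28 ± 0.16, adjusted p = 9.57e-17). Smad6 was at 1.46 ± 0.105 CPM in BPK25 and 4.46 ± 0.940 CPM in IAA (-1.62 ± 0.25, adjusted p = 3.23e-07). Id1 was at 18.7 ± 1.11 CPM in BPK25 and 55.2 ± 2.62 CPM in IAA (-1.57 ± 0.09, adjusted p = 2.64e-20). Bmpr1a had 212 to 215 CPM in BPK25 libraries and 213 to 217 CPM in IAA libraries of day 4, and was not called. At day 6, 1 was higher and 5 lower, against 27.7% and 28.8%; the higher one, Id4 (0.49 ± 0.18, adjusted p = 0.0283), was lost when BPK25 replicate 1 or 2 or IAA replicate 1 or 3 was left out. At day 4 the call of Bmp7, lower in BPK25 (-0.27 ± 0.12, adjusted p = 0.0410), was lost when replicate 2 or 3 of either group was left out.

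Whether the effect of a treatment differed between the 4 days was tested for each gene in one joint test of days 2, 4 and 6 against day 0. For IAA, all 9 genes were called, where 70.1% of all genes were. Bmpr1a (adjusted p = 2.87e-18) and Id2 (adjusted p = 3.92e-17) had the smallest p-values and Id4 the largest (adjusted p = 0.000982). For BPK25, 6 of 9 were called, against 47.1% of all genes, Bmpr1a again with the smallest p (adjusted p = 5.16e-16). Of these, Id3 was lost without BPK25 day 4 replicate 3 (adjusted p = 0.0548) or DMSO day 4 replicate 1 (0.0708), and Smad6 without BPK25 day 4 replicate 1 (0.0598) or 3 (0.0583) or DMSO day 4 replicate 2 (0.236). When day 4 was left out, a choice made after seeing the data, edgeR called 0 of the 9 for BPK25, with adjusted p-values from 0.102 (Id1, the one member with an unadjusted p under 0.05) to 0.998 (Id2); DESeq2 was not run without day 4. For IAA 8 of 9 remained called without it, and Id1 was the one that did not (adjusted p = 0.124).

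The other genes of the pathway were taken from 7 fixed lists, with the 9 members left out. Their counts stand against these shares of all genes called higher and lower: with IAA 21.3% and 23.2% at day 0, 27.5% and 27.9% at day 2, 25.9% and 25.9% at day 4, and 30.6% and 30.0% at day 6. With BPK25 they were 26.2% and 26.8% at day 4, and 3.08% to 7.12% in either direction at the other days. The extracellular antagonists and modulators, which bind or process BMPs outside the cell, had 18 genes of which 14 were tested. In DMSO 10 were higher at day 6 than at day 0, where 33.2% of all genes were, and 4 were not called. Lower at that day were 0, with 0 at an unadjusted p under 0.05 and 0 by DESeq2, against 29.5% of all genes. At day 4 only 4 were higher than at day 0, against 26.0%. With IAA more of them were lower than higher, with 2 higher and 6 lower at day 0, 3 and 7 at day 2, 1 and 8 at day 4, and 3 and 8 at day 6. The median log2 fold change of the list was -0.53, -0.61, -0.87 and -1.61 in that order of days, where that of all genes was between -0.03 and 0.00. Nog, which encodes noggin, a protein that binds BMPs and keeps them from their receptors, had 0.652 ± 0.456 CPM in IAA at day 6, against 8.29 ± 1.23 CPM in DMSO (log2 fold change -3.57 ± 0.27, adjusted p = 4.34e-16). Grem1, a secreted BMP antagonist of the DAN family, was almost without reads in IAA at day 2, with 1 count over the 3 libraries and 78 in DMSO. Its pooled rate was 88.9 times lower in IAA, with an exact 95% interval of 15.5 to 3557 that covers counting error only. Fst, which encodes follistatin, a binder of activins and of some BMPs, had 4.45 to 5.72 CPM in IAA libraries at day 2, against 39.7 to 40.5 CPM in DMSO libraries (0.125 times the DMSO level, adjusted p = 1.57e-28). Bmper, a modulator that binds BMPs, was lower in IAA at day 4 by a log2 fold change of -1.59 ± 0.12 (adjusted p = 3.44e-16). Fstl1, a secreted follistatin-like protein singled out after its values were seen, was higher in IAA at all 4 days, by 1.51 ± 0.05 at day 2 (adjusted p = 8.60e-30).

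With BPK25 few genes of the same list were called at days 0, 2 and 6, and more at day 4. Called genes were 0 higher and 0 lower at day 0, 1 and 0 at day 2, 1 and 7 at day 4, and 0 and 2 at day 6. The 1 higher at day 2, Chrdl1, was lost whichever of the 6 libraries was left out, and DESeq2 gave it no adjusted p. At day 0, 0 genes had an unadjusted p under 0.05 in either direction and DESeq2 called 0. Fst had 37.5 to 40.2 CPM in BPK25 libraries at day 2 and 39.7 to 40.5 CPM in DMSO libraries. At day 4 it had 3.82 to 5.64 CPM in BPK25 libraries, against 37.1 to 39.6 CPM in DMSO libraries (log2 fold change -3.04 ± 0.11, adjusted p = 1.63e-28). At day 6 it was at 81.8 to 83.6 CPM in BPK25 libraries and 96.1 to 108 CPM in DMSO libraries (-0.31 ± 0.05, adjusted p = 0.000119). Bmper (-2.91 ± 0.15, adjusted p = 3.80e-22) and Grem1 (-2.88 ± 0.39, adjusted p = 1.88e-08) were also lower at day 4, in the libraries that stood apart. Bmp1, a secreted protease that cleaves the antagonist chordin, was lower at day 6, at 19.3 ± 0.786 CPM in BPK25 and 25.2 ± 1.94 CPM in DMSO (-0.38 ± 0.09, adjusted p = 0.00403). Fibroblasts also express several of these antagonists, and the feeder marker sums given above moved with the groups. At day 6, when Nog and Fst were lower in IAA, the feeder sum was higher in IAA. The part of feeder cells in these levels was not tested.

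**Figure D4:**
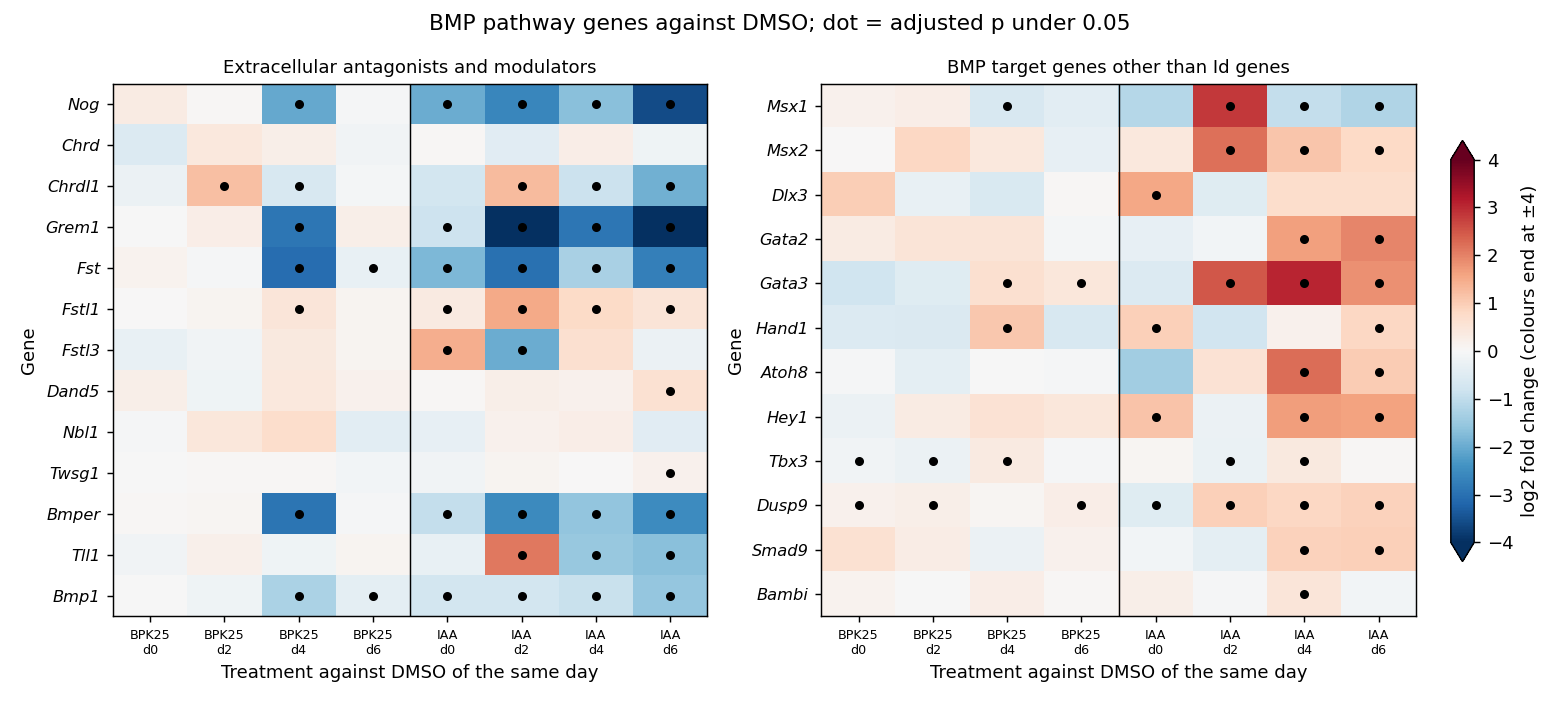
Log2 fold change against DMSO of the same day (colour, ending at ±4) for 13 of the 14 tested extracellular antagonists and modulators (left) and the 12 tested BMP target genes other than Id genes (right), by treatment and day (columns); dots mark called genes. Nog, Grem1, Fst and Bmper are lower in every IAA column and in BPK25 at day 4, and target genes such as Gata3 are higher in IAA at days 4 and 6.

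The BMP target genes other than Id genes (14 genes, 12 tested) were mostly higher with IAA at the late days. With IAA, 3 were higher and 1 lower at day 0, 4 and 1 at day 2, 9 and 1 at day 4, and 8 and 1 at day 6. The higher counts of days 0 and 2 are near the shares of all genes. The median log2 fold change of the list was -0.02, -0.08, 0.87 and 0.88 in that order of days. Gata3, a transcription factor gene of trophectoderm and other lineages, had 19.5 to 21.9 CPM in IAA libraries at day 4, against 1.91 to 2.96 CPM in DMSO libraries (log2 fold change 3.05 ± 0.16, adjusted p = 2.08e-21). Gata2, a relative, had a mean of 12.2 ± 1.27 CPM in IAA at day 6, against 3.18 ± 0.0802 CPM in DMSO (1.94 ± 0.16, adjusted p = 9.58e-15). Atoh8, a bHLH gene, was higher by 2.24 ± 0.31 at day 4 (adjusted p = 2.37e-08), and Hey1, a repressor of the bHLH class that also responds to Notch, by 1.61 ± 0.27 at day 6 (adjusted p = 1.10e-06). Msx1, a homeobox gene, was the 1 lower gene at both late days, named for day 4 after its values were seen (-0.94 ± 0.22 at day 4, adjusted p = 0.000356; -1.19 ± 0.23 at day 6, adjusted p = 1.55e-05). At day 2 it was higher in IAA (2.84 ± 0.30, adjusted p = 1.42e-11). At day 0 the number of higher targets was 1 to 2 when a single library was left out, and 1 when only the libraries compared were fitted. With BPK25, 1 target was higher (Dusp9) and 1 lower (Tbx3) at days 0 and 2. Both day 0 calls were lost in at least 1 fit without 1 library. At day 4, 3 were higher and 1 lower. At day 6, 2 were higher (Gata3 and Dusp9) and 0 lower, with 1 lower at an unadjusted p under 0.05 at day 6 and 0 by DESeq2. The call of Gata3 at day 6 (0.45 ± 0.14, adjusted p = 0.0401) was lost under DESeq2 (adjusted p = 0.0677), with the replicate block (0.0572), and without BPK25 replicate 1 or 3 or DMSO replicate 1 or 2 (highest adjusted p 0.232). Gata3 and Hand1 are also in the list of trophectoderm markers, whose summed level was 45.5 to 49.2 CPM in IAA and 22.8 to 26.0 CPM in DMSO at day 4. Most of that gap was Gata3 itself, at a mean of 20.4 CPM in IAA and 2.39 CPM in DMSO, and so no separate measure. Krt7 was at 6.63 CPM in IAA and 1.19 CPM in DMSO, Tfap2c at 5.01 and 6.14 CPM, and Eomes at 14.1 and 13.3 CPM. Hand1 is also in the list of mesoderm markers, which summed to 134 to 140 CPM in IAA and 31.6 to 36.2 CPM in DMSO, most of it Meox1 in IAA (83.9 CPM, against 10.8 CPM in DMSO). No marker of either list that passed the filter was at 0 in these libraries. The part of such cells in the targets' levels was not tested.

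Upstream of the targets, receptors and co-receptors (9 genes besides Bmpr1a, all tested) had the following numbers called higher and lower in IAA: 3 and 2 at day 0, 5 and 1 at day 2, 6 and 1 at day 4, and 4 and 2 at day 6. The list's median log2 fold change was 0.12, 0.70, 0.34 and 0.31 in that order of days. At day 0 the lower ones were 0 to 2 when 1 library was left out. Bmpr2, the type II BMP receptor, was at 81.4 ± 1.02 CPM in IAA at day 2, against 45.9 ± 2.27 CPM in DMSO (log2 fold change 0.83 ± 0.05, adjusted p = 1.75e-18). Rgma, a co-receptor, was at 16.1 ± 1.27 CPM in IAA at day 2, against 4.84 ± 1.11 CPM in DMSO (1.69 ± 0.14, adjusted p = 1.80e-14). Eng, the co-receptor endoglin, was lower in IAA at days 2, 4 and 6, the day 4 call (-0.45 ± 0.14, adjusted p = 0.00661) being lost without IAA day 4 replicate 3. With BPK25, 0 receptors were called at days 0, 2 and 6, where 1 had an unadjusted p under 0.05 (lower, at day 0) and DESeq2 called 0, and 3 were higher and 1 lower at day 4. Acvrl1, a type I receptor best known in endothelium, had low levels, 1.20 ± 0.128 CPM in BPK25 at day 4 and 0.341 ± 0.344 CPM in DMSO (2.02 ± 0.49, adjusted p = 0.000554).

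Among the signal transducers (4 genes), 3 were higher and 0 lower in IAA at each of days 2, 4 and 6, with 0 lower at an unadjusted p under 0.05 and 0 by DESeq2. Their median log2 fold change was 0.41, 0.29 and 0.46. Smad5 was higher by 0.49 ± 0.06 at day 2 (adjusted p = 5.89e-10), Smad1 by 0.62 ± 0.10 at day 2 (adjusted p = 8.74e-07) and Smad9, which is itself a BMP target, by 0.96 ± 0.17 at day 6 (adjusted p = 4.26e-06). With BPK25, 1 was higher at day 2 (Smad1, lost when BPK25 replicate 1 or any DMSO library was left out) and 1 at day 4 (Smad4, 0.28 ± 0.06, adjusted p = 7.84e-05). Of the other ligands (13 genes, 7 tested), the numbers called with IAA were 0 higher and 3 lower at day 0, 0 and 4 at day 2, 3 and 1 at day 4, and 1 and 2 at day 6. Their median log2 fold change was -0.41, -0.36, 0.35 and -0.15. At days 0 and 2, 0 were higher at an unadjusted p under 0.05 and 0 by DESeq2. Gdf3, a ligand of pluripotent cells, was at 1.27 ± 0.309 CPM in IAA at day 2, against 5.64 ± 0.777 CPM in DMSO (-2.14 ± 0.22, adjusted p = 5.61e-12). Bmp2, the ligand closest to Bmp4, was at 1.26 ± 0.219 CPM in IAA at day 0, against 3.09 ± 0.553 CPM in DMSO (-1.26 ± 0.26, adjusted p = 0.000117). It was at 2.67 ± 0.367 CPM in BPK25 at day 4, against 5.21 ± 0.0713 CPM in DMSO (-0.96 ± 0.18, adjusted p = 1.02e-05). Bmp5 had 49 counts in IAA at day 4 and 2 in DMSO, a pooled rate 19.9 times lower in DMSO (exact 95% interval 5.22 to 169, counting error only). Of the day 2 calls in IAA, those of Bmp6, Bmp8a and Gdf6 were each lost in at least 2 fits that left out 1 library; Gdf6 was -0.80 without DMSO day 2 replicate 2, against -1.22 with it. Of the day 4 calls, that of Bmp2 was lost in 3 such fits and that of Bmp6 without DMSO day 4 replicate 2 (0.23, against 0.35 with it).

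The intracellular and membrane inhibitors other than Smad6 and Smad7 (6 genes) held both directions in IAA at every day, from 1 higher and 3 lower at day 0 to 1 and 2 at day 6, with medians between -0.18 and 0.13. Ski, a repressor that binds SMADs, was lower in IAA at all 4 days, by -0.62 ± 0.04 at day 6 (adjusted p = 3.11e-17), and lower in BPK25 at day 4 (-0.46 ± 0.04, adjusted p = 5.97e-13). Its relative Skil was higher in BPK25 at day 4, at 262 ± 9.90 CPM, against 159 ± 11.0 CPM in DMSO (0.72 ± 0.06, adjusted p = 2.67e-15). The E proteins and bHLH factors with which ID proteins pair or which they oppose (12 genes, 9 tested) had 6 higher and 0 lower in IAA at day 4, with 1 lower at an unadjusted p under 0.05 and 0 by DESeq2. The median log2 fold change was 1.28 at that day. At day 6, 4 were higher and 4 lower, with a median of -0.05. The higher ones of day 6 were 2 without DMSO day 6 replicate 1 and 3 to 4 without any other single library. Twist1, a mesenchymal bHLH gene that fibroblasts express, was higher in BPK25 at day 4 (1.12 ± 0.19, adjusted p = 2.75e-06). In IAA it was higher from day 2 on, by 1.67 ± 0.15 at day 6 (adjusted p = 1.25e-13). The feeder marker sum was higher in IAA at those days and lower in BPK25 at day 4, each against DMSO. Nearly all of the BPK25 gap was Pdgfra, at 96.3 CPM in BPK25 and 159 CPM in DMSO. The part of feeder cells in the level of Twist1 was not tested.

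Compared per kilobase of exon, Bmpr1a was the most abundant of the 9 genes in DMSO at day 0, at 17.1 CPM per kb, followed by Id1 at 9.43 and Bmp4 at 6.18, and Id3 was lowest at 0.409. In DMSO at day 6 Id1 led at 41.8 CPM per kb, with Bmpr1a at 25.1, Id2 at 18.2 and Id3 at 8.98, and Smad6 was lowest at 1.09. Over the 12 groups, the ratio of the highest to the lowest group mean was largest for Id3, at 48.6. Its means ran from 0.331 CPM in IAA at day 0, on 8 counts over the 3 libraries, to 16.1 CPM in DMSO at day 6. That ratio was smallest for Bmp7, at 1.62, from 10.1 CPM in IAA at day 2 to 16.3 CPM in DMSO at day 2. The highest groups of Id3, DMSO, IAA and BPK25 at day 6 and IAA at day 4, had means of 16.1, 15.5, 14.1 and 15.0 CPM and libraries from 12.8 to 17.7 CPM, and neighbours in that order overlapped. For Id2 the order of the upper groups was IAA at day 6 (62.7 CPM), IAA at day 4 (58.1), BPK25 at day 6 (45.5), DMSO at day 6 (44.3), BPK25 at day 4 (34.4) and DMSO at day 4 (24.8), where BPK25 and DMSO at day 6 overlapped.

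Across the 12 group means of log2 CPM, Id2 and Id3 had a Pearson correlation of 0.95, Id1 and Id3 of 0.90, and Id2 and Bmp4 of -0.92, while Id4 stood at -0.03 with Id2 and 0.21 with Id3. These are descriptions over points that share the time course. Among about 5225 genes that reached 5 CPM and ranged over at least 1 log2 unit, those closest in pattern were Plekhh1 (0.987), Tnfrsf1a (0.981) and Hoxd4 (0.977) for Id1, Col4a5 (0.993), Rufy3 (0.991) and Mex3b (0.990) for Id2, and Nedd9 (0.994), Dchs1 (0.988) and Bace1 (0.987) for Id3. For Id4 they were Ankrd33b (0.945), Epas1 (0.943) and Ankdd1b (0.935), for Bmp4 Fam185a (0.983) and Ccdc58 (0.978), and for Bmpr1a Dync1li2 (0.985), Nek9 (0.982) and Lpl (0.980). Smad7 was closest to Piezo1 (0.973), Anpep (0.964) and Nectin4 (0.961), Smad6 to Crtap (0.940), P4ha3 (0.916) and Zfp783 (0.910), and Bmp7 to March3 (0.744), Onecut1 (0.723) and Oaf (0.719).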

How the data were processed

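RNA-seq was measured in 36 libraries of mouse embryonic stem cells, in 12 groups of treatment and day with 3 libraries each, as the labels give them. The authors deposited one table of raw read counts for 55335 genes; the submitters' processing notes list FastQC (0.11.7), HISAT2 (2.1.0), featureCounts (2.0.1), DESeq2 and the mm10 build. No source used here gives the annotation release, the strand setting or any filter. Columns were matched to samples by name, and 54587 gene identifiers matched GENCODE M21 (GRCm38), which supplied coordinates and exon lengths; promoter windows came from RefSeq.

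Genes were kept with filterByExpr (minimum count 10, minimum total 15), leaving 17394. One edgeR 4.0.16 quasi-likelihood fit over all 12 groups (R 4.3.3, TMM) gave 15 comparisons and 2 tests of whether a treatment's effect differed between days, two-sided, with Benjamini-Hochberg adjustment over all genes and a threshold of 0.05. The standard error of a log2 fold change was taken as its size over the square root of F. BPK25 and IAA share the DMSO libraries of a day, so their comparisons with DMSO are not independent. Replicate libraries of a group differed beyond sampling noise (chi-square per degree of freedom 1.35 to 2.85 over 36 pairs). Counting intervals are exact and cover counting error only.

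The 9 genes, the pathway lists and the marker lists were chosen with earlier results of these data known. The text names, from each list and comparison, up to 4 called genes with the largest absolute log2 fold change and a level of 1 CPM or more in either group, and for each member up to 3 genes closest in Pearson correlation over the 12 group means of log2 CPM (prior count 2). Some genes that this rule names are not reported here; they stay in the list counts and medians. Alternatives were DESeq2 1.42.0, RLE size factors, a stricter filter (3 libraries at 1 CPM), none, fits of only the libraries compared or of 1 day, a replicate block, leaving out each library and, added after seeing the data, leaving out day 4 from the tests across days.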

Additional observations from a re-analysis of the deposited data

Results flagged for a closer look

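The effect of a treatment against DMSO differed between the 4 days for most of the 9 genes, by edgeR's joint quasi-likelihood test with adjustment over all genes. For IAA the adjusted p was 2.25e-05 for Id1, 3.92e-17 for Id2, 4.25e-09 for Id3 and 0.000982 for Id4. It was 1.34e-13 for Bmp4, 0.000488 for Bmp7, 2.87e-18 for Bmpr1a, 2.89e-06 for Smad6 and 8.26e-12 for Smad7. For BPK25 it was 0.0130 for Id1, 0.00191 for Id2, 0.0213 for Id3, 5.16e-16 for Bmpr1a, 0.0195 for Smad6 and 2.77e-06 for Smad7. Of these BPK25 results none passed the threshold when day 4, whose libraries stood apart over all genes, was left out.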

How the results depend on the processing

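No log2 fold change of the 9 genes changed direction past the threshold under any alternative: 995 values kept their direction and side of the threshold, 45 lost the call, 6 gained one and 0 reversed. Members called lower in BPK25 at day 0, 2 in the fit reported, were 1 under DESeq2 (which gave Bmp4 no adjusted p), with no filter on low counts, in the 9 libraries of the day and in only the libraries compared, and 1 to 2 with 1 library left out. At day 2 they were 0 with no filter and 1 to 2 with 1 library left out. With 1 library left out, counts of members were 0 to 2 for lower in BPK25 at day 6, 0 to 1 for lower in IAA at day 0 and at day 6, 0 to 1 for higher in DMSO at day 2 than at day 0, and 1 to 2 for higher in BPK25 than in IAA at day 0. Higher in BPK25 than in IAA at day 6, 1 in the fit reported, were 0 under DESeq2 and with no filter, and 0 to 1 with 1 library left out. Members whose BPK25 effect differed between days were 0 without day 4, against 6 with it, and 4 to 6 with 1 library left out; over all genes the number was 1400 without day 4, against 8196. The cause of these changes was not tested.

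Over all genes, 797 lower in BPK25 at day 0 were 402 with no filter, 535 lower in BPK25 at day 6 were 330 under DESeq2, and 670 lower in DMSO at day 2 than at day 0 were 387 in only the libraries compared. Leaving out 1 library moved these counts too. Genes lower in BPK25 at day 0 were then 436 to 539, with any library left out. Those higher, 577 in the fit reported, were 357 to 447, lowest without DMSO day 0 replicate 2. At day 6 those lower in BPK25 were 228 to 516 and those higher, 698 in the fit reported, 312 to 684, both lowest without DMSO day 6 replicate 1. Genes lower in DMSO at day 2 than at day 0 were 233 to 576 and those higher, 276 in the fit reported, 131 to 313, both lowest without DMSO day 2 replicate 3. Ligands lower in IAA at day 2, 4 in the fit reported, were 2 in only the libraries compared, and 1 ligand was called higher there with no filter. With RLE size factors in place of TMM, the log2 scaling between the 2 groups of a comparison shifted by -0.022 to 0.018. Replicate numbers did not pair the libraries (correlations of deviations -0.03 to 0.05). With the replicate block no member's call changed, members being 3 higher and 6 lower in BPK25 at day 4 as without it; Smad9 at day 4 of DMSO lost its call (0.76, adjusted p = 0.0545), and 1 target gene was called higher in BPK25 at day 6, against 2. Low counts limit Id3 before day 4, Id4 and Smad6.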
